A study of Homo sapiens with 6 samples.

Results

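The transcripts of 10 circadian clock genes were measured on arrays in the human cell line MDA-MB-231, which derives from a breast cancer of the triple-negative kind, grown on glucose or on fructose. The genes were BMAL1, CLOCK, PER1, PER2, PER3, CRY1, CRY2, BHLHE40, BHLHE41 and DBP, taken by symbol from the annotation of the array, and all 10 were found among 18404 genes with a probe set of their own. Each had a single probe set, so no choice between probe sets entered their values. The 3 glucose cultures were kept in DMEM with 25 mM glucose and the 3 fructose cultures in DMEM with 10 mM fructose, both for 25 days, and the replicates were batches of cells adapted apart from each other. The kind of sugar and its concentration differed together and cannot be told apart. Every culture was fed with fresh medium about 24 hours before harvest and taken at some 70% confluency, so these values are a single time point, and neither the phase nor the amplitude of a rhythm can be read from them.

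In the mammalian clock, CLOCK or its relative NPAS2 pairs with BMAL1, binds E-box sequences and switches on the PER and CRY genes, whose protein products return to the nucleus and block that activity. The nuclear receptors of the REV-ERB and ROR families set the level of BMAL1 transcription in a connected loop. BHLHE40 and BHLHE41, also called DEC1 and DEC2, are repressors that compete for the same E-boxes, and DBP is an output factor that binds D-boxes in clock-controlled promoters. Fresh serum or medium can reset the clocks of cultured cells, and clocks of single cells drift apart afterwards, so the RNA of a dish is an average over cells. In such an average, a change in how many cells express a gene and a change in RNA per cell cannot be told apart.

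The sites through which these factors act were looked for in RefSeq promoters of GRCh38.p14, each running from 250 bases before to 50 bases after an annotated start. All 10 genes were in that table, with 14 windows. The E-box CACGTG, which reads the same on both strands, was found in 3 of the 14 windows, those of PER1, BHLHE40 and BHLHE41. It was found in 7.26% of all 35116 promoters of that length. The E-prime box CACGTT, searched on both strands, was found in 4 of the 14 windows (CLOCK, PER2, CRY1 and CRY2), against 5.34% of all promoters. Of the D-boxes, TTATGTAA was found in 1 window, of PER3 (0.886% of all promoters), and TTACGTAA in 1, of PER2 (0.125%). These matches describe letters and say nothing on whether a factor is bound there.

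The stretches below are shown because they place the E-box or D-box letters of the PER, CRY1 and BHLHE genes whose levels are described next, with the matched letters in capitals and each sequence on the strand of its gene. BHLHE40 lies at chr3:4979187-4979242 on the plus strand, with its E-box beginning 245 bases before the start. BHLHE41 lies at chr12:26125035-26125130 on the minus strand, with the E-box 48 bases before the start, and PER1 at chr17:8152527-8152622 on the minus strand, 173 bases before it. The PER2 E-prime box lies in chr2:238288757-238288852 on the minus strand, 197 bases before the start, and its D-box in chr2:238288586-238288658, beginning 3 bases before the start and running across it. The CRY1 box, at chr12:107093588-107093683 on the minus strand, is on the opposite strand and therefore reads AACGTG here. The PER3 D-box lies in chr1:7784069-7784166 on the plus strand, 177 bases before the start.
BHLHE40 E-box: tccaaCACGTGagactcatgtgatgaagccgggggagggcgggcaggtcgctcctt
BHLHE41 E-box: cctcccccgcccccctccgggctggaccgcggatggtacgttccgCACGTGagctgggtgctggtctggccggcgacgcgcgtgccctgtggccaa
PER1 E-box: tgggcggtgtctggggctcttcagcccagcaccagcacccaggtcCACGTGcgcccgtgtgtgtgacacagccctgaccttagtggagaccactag
PER2 E-prime box: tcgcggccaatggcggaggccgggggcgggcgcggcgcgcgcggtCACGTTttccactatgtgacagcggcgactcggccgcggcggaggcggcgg
PER2 D-box: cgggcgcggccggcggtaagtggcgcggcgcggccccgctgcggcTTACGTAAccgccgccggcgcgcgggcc
CRY1 E-prime box: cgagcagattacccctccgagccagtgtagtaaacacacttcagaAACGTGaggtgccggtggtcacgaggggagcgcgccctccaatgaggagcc
PER3 D-box: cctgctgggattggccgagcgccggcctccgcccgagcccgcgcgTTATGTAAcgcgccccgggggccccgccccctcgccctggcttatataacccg
PER1, PER2 and PER3 thus carry different combinations of these letters in the windows searched. The cAMP response element TGACGTCA was found in 0 of the 14 windows (1.85% of all promoters). Its shorter form TGACG lies within the full element and was found in 5 windows, of CLOCK, PER2, CRY1 and CRY2 (24.6% of all promoters). The core AGGTCA of ROR and REV-ERB sites was found in 4 windows, of BMAL1, PER1 and CRY2 (13.8%).

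Levels are RMA intensities on a linear scale, which ran from 2.15 to 9287 over the table, and the number of arrays limits their precision. The label check was TXNIP, a glucose-induced gene, with 1639, 1781 and 1656 in glucose and 107, 122 and 136 in fructose. The mesenchymal markers VIM, CD44, AXL, CAV1, MSN and LGALS1 were each brighter than at least 98.6% of the tested probe sets. Of 7 luminal markers, ESR1, PGR and CDH1 were dim (33.5%, 11.9% and 18.7% of probe sets lay below them), FOXA1 (42.3%) and ERBB3 (43.6%) were less so, and GATA3 (67.9%) and KRT19 (98.8%) were bright. Of 6 fibroblast markers, DCN (5.08%), LUM (5.59%), PDGFRA (23.0%), PDGFRB (33.7%) and COL1A2 (45.3%) were dimmer than the median probe set and COL1A1 (56.8%) was brighter. Of the leukocyte markers, PTPRC (7.62%), CD3E (32.6%) and CD14 (40.7%) were dim, while CD68 (98.6%), which macrophages share with other cells rich in lysosomes, was bright. None of these markers passed the test between the sugars, where the smallest adjusted p was 0.33 (ERBB3, at -0.19).

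Across the 10 clock genes, 6 were higher and 4 lower in fructose, and 0 of the 10 passed limma at an adjusted p of 0.05, a threshold passed by 0.00354% of the 28230 probe sets tested (1 probe set, TXNIP, with 3694 at an unadjusted p under 0.05). At an unadjusted p under 0.05 the count was 1 of 10, BHLHE40, against 14.3% of all genes. The median log2 difference, fructose minus glucose, was 0.07 for the clock genes and 0.02 for all genes, and the median size without its sign was 0.10 and 0.09. The glucose and fructose arrays did not overlap for BHLHE40, higher in fructose as were 13.0% of all genes by that measure, and for PER3, lower in fructose as were 10.0% of all genes. As a group the clock genes therefore lay close to the background of the array on these measures. Without fructose replicate 2 the median of the 10 was 0.12, with 7 higher and 3 lower, and without fructose replicate 3 it was 0.02.

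**Figure D1:**
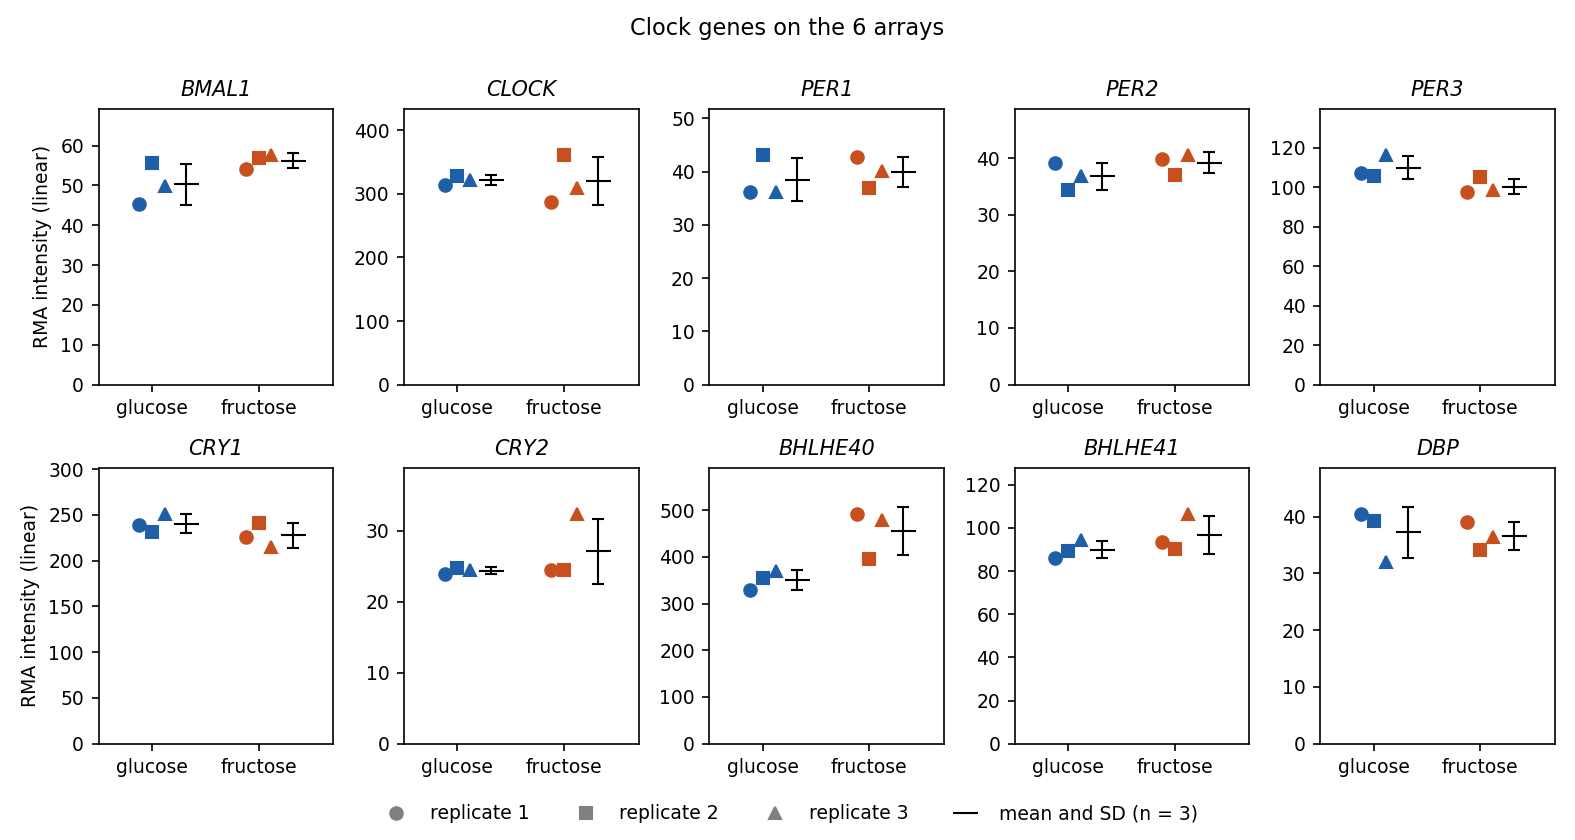
RMA intensity (linear, from 0) of each clock gene on the 3 glucose (blue) and 3 fructose (orange) arrays, with symbols for replicates and black bars for the mean and SD (n = 3). BHLHE40 sits between 328 and 370 in glucose and between 396 and 492 in fructose, while most other genes overlap between the sugars.

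The repressor pair showed the largest difference among the clock genes, and it lay in BHLHE40. This gene is also a target of hypoxia and stress signals besides its role in the clock. Its intensity was 328, 355 and 370 on the glucose arrays and 492, 396 and 478 on the fructose arrays, or 351 ± 21.2 (SD, n = 3) against 455 ± 52.0 (SD, n = 3). All fructose arrays lay above all glucose arrays, with fructose replicate 2 nearest to glucose. The difference was 1.29-fold, or 0.37 on the log2 scale (SE 0.10, 95% interval 0.13 to 0.61), larger in size than that of 97.0% of all genes. It did not pass over all probe sets (limma adjusted p = 0.23, range over the alternatives 0.064 to 0.45), and the exact two-sided permutation test gave 0.1, the smallest p that 3 against 3 arrays allow. The smallest adjusted p, 0.064, came from a fit with an intensity trend and robust variances, and the difference was 0.47 without fructose replicate 2.

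BHLHE41, its closest relative and a repressor of the same E-boxes, had intensities of 86.2, 89.3 and 94.2 in glucose and 93.3, 90.1 and 106 in fructose. The groups overlapped, and only fructose replicate 3 stood above every glucose array. The log2 difference was 0.10 (95% interval -0.10 to 0.30, limma adjusted p = 0.67). Relative to BHLHE41 on the same array, BHLHE40 was higher in fructose by 0.27 on the log2 scale. The ratio lay 0.43, 0.17 and 0.20 above its glucose mean on the fructose arrays and between -0.04 and 0.03 on the glucose arrays, without overlap. The exact permutation p was 0.1, the smallest that 3 against 3 arrays allow, and 0.23 after adjustment over 7 such pairs. The test could therefore not pass the threshold for any pair, and no conclusion is drawn from it. The pairs were chosen after the values were seen, and the adjustment does not correct for that choice.

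The activators BMAL1 and CLOCK gave no difference past the test. BMAL1, the partner without which the clock does not run in most tissues, had intensities of 45.3, 55.6 and 49.9 in glucose and 54.2, 56.8 and 57.7 in fructose. Glucose replicate 2 lay within the fructose range, and the log2 difference was 0.17 (95% interval -0.05 to 0.38, limma adjusted p = 0.48). It was 0.24 without glucose replicate 2 (limma adjusted p = 0.44, unadjusted 0.030) and 0.094 without glucose replicate 1 (limma adjusted p = 0.74, unadjusted 0.33). CLOCK had 314, 329 and 322 in glucose and 288, 362 and 310 in fructose. Its fructose arrays surrounded the glucose arrays, with replicate 2 above them and replicates 1 and 3 below, and the log2 difference was -0.01 (95% interval -0.24 to 0.21, limma adjusted p = 0.97). When arrays were left out one at a time, the sign was the other in 3 of 6 fits.

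Each of these activators has a relative on the array. NPAS2, which can stand in for CLOCK, had 590, 626 and 592 in glucose and 785, 705 and 750 in fructose. The groups did not overlap, as for 13.0% of all genes in that direction. Its log2 difference was 0.31 (SE 0.07, 95% interval 0.14 to 0.48, limma adjusted p = 0.19). BMAL2, a paralog of BMAL1, had 247, 258 and 272 in glucose and 224, 206 and 215 in fructose. It was lower in fructose, also with no overlap, as were 10.0% of all genes. Its log2 difference was -0.27 (SE 0.07, 95% interval -0.44 to -0.10, limma adjusted p = 0.23). NPAS2 passed with an intensity trend and robust variances (adjusted p = 0.025), a fit that called 473 probe sets or 1.68% of those tested. BMAL2 did not (adjusted p = 0.068).

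These relatives were also set against each other on the same array. The log2 ratio of BMAL1 to BMAL2 was higher in fructose by 0.43, at 0.32, 0.51 and 0.47 above the glucose mean, where the glucose arrays reached 0.15. The ratio of NPAS2 to CLOCK was higher by 0.32, at 0.54, 0.06 and 0.37, where the glucose arrays lay between -0.03 and 0.02. Fructose replicate 2 was close to glucose in the NPAS2 ratio and far from it in the BMAL ratio. For each of these ratios the groups did not overlap. The exact permutation p was 0.1 (0.23 adjusted over the 7 pairs), again the smallest possible, so that this test could not pass. How often ratios of other gene pairs fail to overlap was not computed. Of single genes, 13.0% were higher and 10.0% lower in fructose without overlap. The pairs were chosen after the values were seen, and no conclusion is drawn from these ratios.

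**Figure D2:**
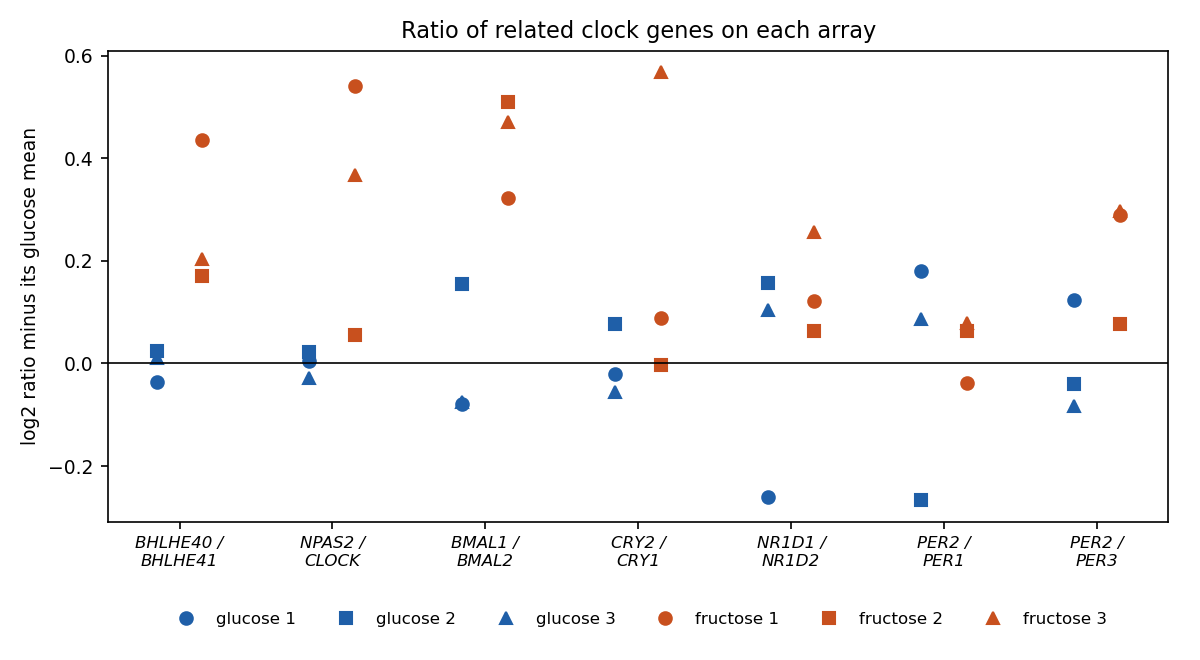
Log2 ratio of 7 pairs of related clock genes on each array, with the glucose mean of each pair set to 0 (y axis), glucose arrays in blue and fructose arrays in orange. For BHLHE40 to BHLHE41, NPAS2 to CLOCK and BMAL1 to BMAL2 all fructose arrays lie above all glucose arrays, and the other 4 pairs overlap.

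The PER genes, whose proteins form the repressive complex with the cryptochromes, were the next group. PER1, which responds quickly to fresh medium, cAMP and glucocorticoids, had 36.1, 43.1 and 36.1 in glucose and 42.7, 37.0 and 40.1 in fructose. The groups overlapped fully, and the log2 difference was 0.06 (95% interval -0.18 to 0.29, limma adjusted p = 0.85). PER2, which carries an E-prime box and a D-box in the windows above, had 39.2, 34.4 and 36.8 in glucose and 39.8, 37.1 and 40.6 in fructose. Its log2 difference was 0.09 (95% interval -0.09 to 0.28, limma adjusted p = 0.67), with overlap between the groups.

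PER3, the PER gene that is dispensable for the core rhythm in mice, was the one clock gene with all fructose arrays below all glucose arrays. Its intensities were 107, 106 and 116 in glucose and 97.5, 105 and 98.7 in fructose, so that fructose replicate 2 (105.0) lay just under glucose replicate 2 (105.6). The means were 110 ± 5.81 and 100 ± 4.05 (SD, n = 3 each). The log2 difference was -0.13 (SE 0.07, 95% interval -0.30 to 0.04, limma adjusted p = 0.50), and the exact permutation p was 0.1. The log2 ratio of PER2 to PER3 was 0.22 higher in fructose with overlap (exact permutation p = 0.2), and that of PER2 to PER1 was 0.04 higher (p = 1, exact permutation).

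The cryptochromes, which are the strongest repressors of CLOCK and BMAL1, gave small differences of opposite sign. CRY1 had 239, 231 and 251 in glucose and 226, 242 and 215 in fructose, a log2 difference of -0.08 (95% interval -0.26 to 0.10, limma adjusted p = 0.70) with overlap. CRY2, with 44.8% of probe sets dimmer than its own, had 23.9, 24.7 and 24.5 in glucose and 24.4, 24.5 and 32.4 in fructose. Only fructose replicate 3 stood apart. The log2 difference of CRY2 was 0.14 (95% interval -0.14 to 0.42, limma adjusted p = 0.67), and without that array it was 0.0043. The CRY2 to CRY1 ratio overlapped between the sugars (exact permutation p = 0.2).

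DBP, an output gene driven directly by CLOCK and BMAL1 and often used as a reporter of clock phase, had 40.5, 39.1 and 32.0 in glucose and 39.0, 34.1 and 36.4 in fructose. Every fructose array lay inside the glucose range. The log2 difference was -0.02 (95% interval -0.28 to 0.23, limma adjusted p = 0.95), and its sign, too, was the other in 3 of 6 fits with an array left out. As a fold, fructose over glucose, the interval ran from 0.826 to 1.17. DBP was close to the median probe set in brightness (52.5% of probe sets were dimmer), as were PER2 (53.2%) and PER1 (53.9%). BMAL1 lay somewhat above it (60.2%). Whether these probe sets stood above the background signal of the array was not tested.

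**Figure D3:**
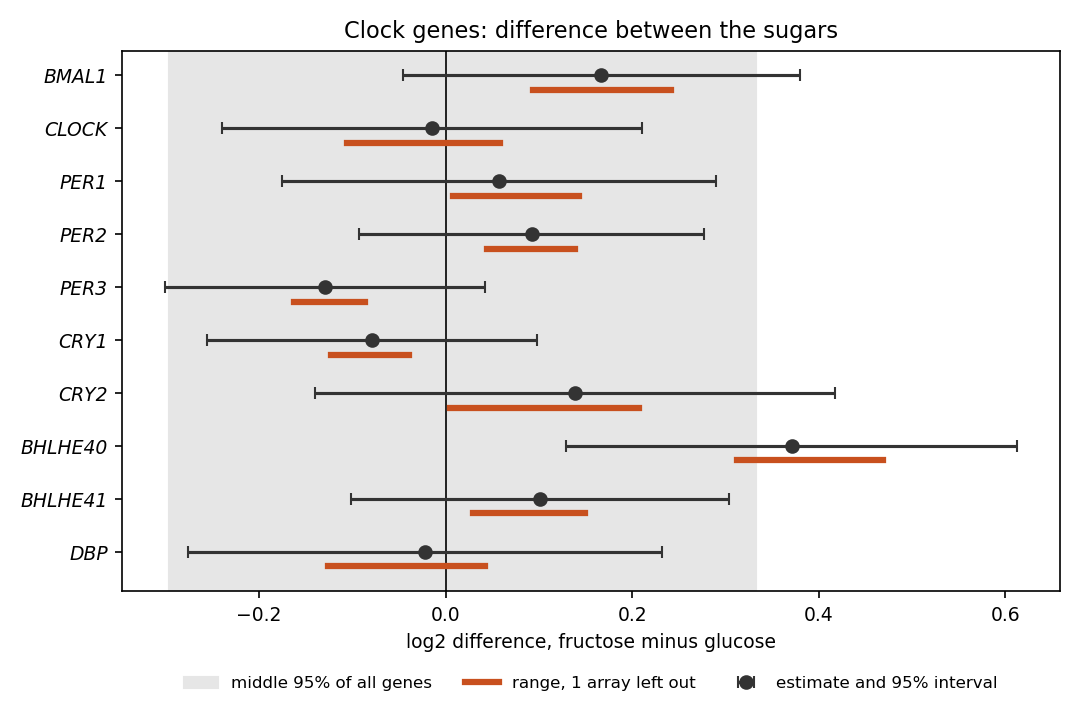
Log2 difference (fructose minus glucose) of each clock gene with its 95% interval (black), the range of the estimate when 1 array is left out (orange), and the middle 95% of all genes (grey band, -0.30 to 0.33). BHLHE40, at 0.37, is the single gene whose interval does not include 0, and the orange ranges of CLOCK and DBP cross 0.

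Arrays of the same sugar differed by a pooled SD of 0.07 for PER3 and CRY1 up to 0.17 for CRY2 (log2), where the median of all genes was 0.11. BHLHE40 had 0.14 and DBP 0.15. In glucose the widest ranges were those of DBP (0.34), BMAL1 (0.30) and PER1 (0.26), and CRY2 had the narrowest (0.05). In fructose the order was different, with CRY2 (0.41), CLOCK (0.33) and BHLHE40 (0.31) widest and BMAL1 narrowest (0.09). Set against the mean of the glucose arrays, the 10 genes had a median of 0.07 in fructose replicate 1, 0.01 in replicate 2 and 0.11 in replicate 3.

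Of 12 further measured clock genes, mainly transcription factors and including TIMELESS and TIPIN, 7 were higher and 5 lower in fructose. Their median was 0.02, and 0 were past the threshold. At an unadjusted p under 0.05 there were 3 (25.0%, against 14.3% of all genes), namely NPAS2, BMAL2 and TIPIN. TIPIN, a replication fork factor that binds TIMELESS, had a log2 difference of -0.26 (95% interval -0.52 to -0.01, limma adjusted p = 0.37), with 729, 570 and 725 in glucose and 533, 578 and 564 in fructose, so that the groups overlapped. TIMELESS itself was at 0.02. RORB, a nuclear receptor that activates BMAL1 in some tissues and was dimmer than the median probe set here, was at -0.14. NR1D1 and NR1D2, the REV-ERB receptors and chosen after their values were seen, were at 0.25 (95% interval -0.05 to 0.56) and 0.11 (95% interval -0.12 to 0.33), both with overlapping groups. TEF and HLF, the relatives of DBP, were at -0.10 and 0.12, and NFIL3, which opposes them at D-boxes, at 0.01.

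Kinases, ubiquitin ligases and partners of clock proteins followed, with 19 measured, 11 higher, 8 lower, a median of 0.01 and 0 past the threshold. The share at an unadjusted limma p under 0.05 was 15.8% (2 higher, 1 lower), close to the 14.3% of all genes. PRKAA2, a catalytic subunit of the energy sensor AMPK, which marks cryptochromes for breakdown, had 102, 110 and 94.5 in glucose and 70.7, 73.5 and 77.1 in fructose. The groups did not overlap, and 10.0% of all genes were likewise lower in fructose without overlap. The log2 difference of PRKAA2 was -0.47 (SE 0.08, 95% interval -0.66 to -0.28, limma adjusted p = 0.14). The other catalytic subunit, PRKAA1, chosen after its value was seen, was at -0.14. GSK3B, a kinase of PER2, CRY2 and REV-ERB proteins, was at 0.28 (SE 0.07, adjusted p = 0.20), with 231, 221 and 216 in glucose and 280, 265.5 and 267 in fructose. BTRC, the ligase that removes PER proteins, was at 0.21 and the deacetylase SIRT1 at 0.16, each without overlap. Of all genes, 13.0% were likewise higher in fructose. PRKAA2, GSK3B, BTRC and SIRT1 are named for the smallest p in the list, a choice that favours groups without overlap. CSNK1D, the main PER kinase, was at 0.06.

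PRKAA2 passed in 3 of the alternative limma fits. These were bright probe sets alone (adjusted p = 0.036, where 2.30% of 14115 probe sets were called), an intensity trend with robust variances (0.030) and log2 of the intensity plus 16 (0.047, where 0.716% of probe sets were called). Of these 3, GSK3B passed with the intensity trend alone (0.042). In these fits the 10 clock genes again gave 0 calls.

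Of 19 measured clock output genes, 12 were higher and 7 lower (median 0.05), and 0 passed. Their share at an unadjusted limma p under 0.05 was 21.1% (2 higher, 2 lower), against 14.3% of all genes. CDKN1A, the cell cycle inhibitor p21, was at 0.35 (SE 0.08, adjusted p = 0.19) and MYC at 0.39 (SE 0.12, adjusted p = 0.26). MYC had 778, 882 and 780 in glucose and 1153, 896 and 1161 in fructose, so that fructose replicate 2 lay next to glucose. KLF10, a clock-controlled and glucose-responsive factor, was at -0.33 (SE 0.08, adjusted p = 0.19). WEE1, the kinase that holds back entry into mitosis and an E-box gene of the clock in liver, was at -0.32 (SE 0.13, adjusted p = 0.37). WEE1 had 179, 201 and 208 in glucose and 143, 141 and 192 in fructose, so that fructose replicate 3 overlapped with glucose. Its further probe sets were at -0.12 and -0.34.

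PER1 is reached by cAMP, glucocorticoid and growth factor signals, and 16 genes of these routes were measured, PER1 among them, with 9 higher, 7 lower, a median of 0.02 and 0 past the threshold. At an unadjusted p under 0.05 there were 4 higher and 1 lower (31.2%, against 14.3% of all genes). CREB1, the factor that binds cAMP response elements, was at -0.26 (SE 0.08, adjusted p = 0.29), and its coactivator CRTC1 at 0.33 (SE 0.10, adjusted p = 0.27). SRF, which drives immediate early genes after serum, was at 0.24 (SE 0.07, adjusted p = 0.24), and FOSB at 0.22. NR3C1, the glucocorticoid receptor, was at -0.02. DUSP1, a phosphatase induced early by serum and stress and chosen after its values were seen, had 205, 210 and 213 in glucose and 326, 215 and 325 in fructose. Its log2 difference was 0.43 (95% interval 0.05 to 0.82, limma adjusted p = 0.33), and fructose replicate 2 lay next to glucose. FOS and NR4A1, also chosen so, were at 0.04 and -0.05. Among further immediate early genes of the list, EGR1 was at -0.16, JUNB at 0.11 and IER2 at 0.0017, each with overlapping groups.

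BHLHE40 and BHLHE41 are also targets of HIF, and 19 genes of the bHLH-PAS family and of the HIF response were measured, with 8 higher, 11 lower, a median of -0.05 and 0 past the threshold. At an unadjusted p under 0.05 there were 2 higher and 4 lower (31.6%, against 14.3% of all genes). EPAS1, also called HIF-2 alpha, was at 0.45 (SE 0.11, adjusted p = 0.20), with 63.2, 73.1 and 72.1 in glucose and 109, 86.2 and 91.4 in fructose. HIF1A, which was brighter (mean 924 in glucose and 851 in fructose), was at -0.12 with overlapping groups, and ARNT was at 0.04. HIF1A and ARNT were picked with their values in view. The HIF targets NDRG1 (-0.26), PDK1 (-0.25) and EGLN3 (-0.25) were each lower on every fructose array than on any glucose array, as were 10.0% of all genes. BNIP3 (-0.21) was likewise lower on every fructose array, and ANKRD37 (0.15) was higher on every one, as were 13.0% of all genes. The groups overlapped for ADM (0.24), VEGFA (0.05), PFKFB3 (-0.06), PFKFB4 (-0.05) and KDM3A (-0.09). These further HIF targets were picked with their values in view. NDRG1 passed with an intensity trend and robust variances (adjusted p = 0.034), and neither PDK1 nor EGLN3 passed in that fit. Whether HIF has a part in the level of BHLHE40 was not tested.

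**Figure D4:**
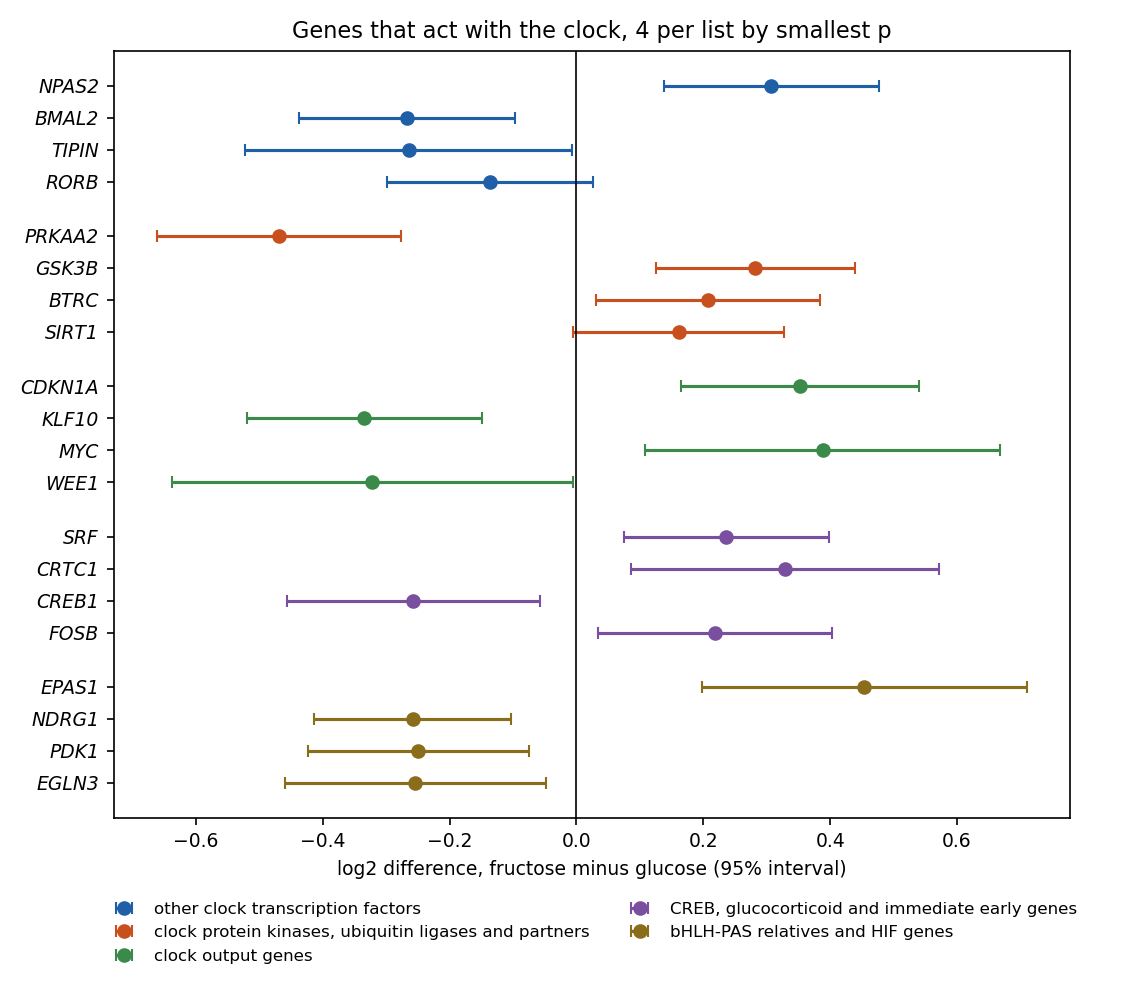
Log2 difference (fructose minus glucose) with its 95% interval for the 4 genes with the smallest p in each of 5 lists, coloured by list. The lists hold other clock genes, partners of clock proteins, clock output genes, CREB, glucocorticoid and immediate early genes, and bHLH-PAS relatives with HIF genes. PRKAA2 (-0.47) and EPAS1 (0.45) lie farthest from 0, and NPAS2 and BMAL2 lie on opposite sides of it.

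The genes whose pattern over the 6 arrays was most like that of BHLHE40, among 11058 genes brighter than the median probe set, were LGALS8-AS1 (an antisense RNA), ABL2, ZMIZ2, FDX2 and PITPNM3. Their Pearson correlations were between 0.990 and 0.996, which is a description of 6 arrays, and 397 genes had a correlation above 0.9. ABL2, a tyrosine kinase of the ABL family, had 251, 259 and 269 in glucose and 336, 293 and 330 in fructose. As for BHLHE40, the fructose replicates 1 and 3 were high and replicate 2 lay between them and the glucose arrays. This likeness follows from the choice of ABL2 by its correlation over the same arrays.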

How the data were processed

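The authors deposited an intensity for every probe set on each of the 6 arrays. It came from RMA, per the submitters' processing notes, with version, program and build not given in the sources used here. Such values are usually log2, but these reached 9287 and were read as linear, so log2 was taken with no pseudocount. The table had 32321 rows, of which 4091 with identifiers below the lowest one paired with a gene were taken as controls and left out. The remaining 28230 were tested with limma 3.58.1 under R 4.3.3 for the difference of fructose minus glucose (lmFit, eBayes, two-sided, no covariate, Benjamini-Hochberg over all of them, threshold 0.05). Names came from the platform annotation, which gave 19158 tested probe sets 1 symbol, 1388 several and 7684 none. A gene was represented by its brightest probe set.

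Members and lists were chosen with earlier results of these data known. From each list of other genes, the 4 genes with the smallest p are named, and the other list genes named were picked with their values in view. Some genes of these lists were not analysed here. The fit was tested on simulated data. Replicate numbers are not stated to pair the cultures, and same-numbered arrays did not deviate together (correlations of -0.03, -0.02 and -0.05 over probe sets). The limma p-values set the group difference against the spread between these separately adapted batches, with variances moderated over all tested probe sets.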

Additional observations from a re-analysis of the deposited data

How the results depend on the processing

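All 16 alternatives gave 0 calls among the 10 clock genes. With 3 arrays in a group, a missing call does not show that a difference is absent. Size alone did not decide a call. With an intensity trend and robust variances, NDRG1 at -0.26 passed (limma adjusted p = 0.034) and BHLHE40 at 0.37 did not (0.064). In the main fit the number of probe sets called by limma was 1. It was 325 among bright probe sets alone, 473 with an intensity trend and robust variances, 202 with log2 of the intensity plus 16, and 0 in the unmoderated test of the same model, where 3565 had an unadjusted p under 0.05. With all probe sets of a gene averaged, 35 of 18404 genes were called. The count therefore rests on these choices, and the cause was not tested. The direction held for 8 of the 10 clock genes and for the 20 named genes of the lists. With an array left out, CLOCK ranged from -0.11 to 0.058 and DBP from -0.13 to 0.042, each with both signs, and BHLHE40 from 0.31 to 0.47. With the replicate number as a block, 1 probe set and 0 clock genes were called, and BHLHE40 had a limma adjusted p of 0.39, so the block changed no call among the clock genes. BMAL1 joined BHLHE40 at an unadjusted p under 0.05 without glucose replicate 2. CRY2 was not fitted among bright probe sets alone.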
